A study of Mus musculus with 6 samples.

Results

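Matricellular proteins are secreted into the extracellular matrix but, unlike collagens, mainly tune how cells attach to it, move within it and respond to growth factors. The 10 genes described are Postn (periostin), Tnc (tenascin-C), the thrombospondins Thbs1, Thbs2, Thbs3 and Thbs4, the SPARC family genes Sparc and Sparcl1, and the CCN family genes Ctgf and Cyr61, now also called Ccn2 and Ccn1. They were chosen by name, and all 10 were found among the 23107 genes of the deposited counts. Aortic valves were taken from outbred mice aged 4 months, and RNA-Seq gave 3 control and 3 mutant libraries. Mutants carried both the caAcvr1 transgene, a constitutively active form of the BMP receptor AcvRI, and Nfatc1Cre, a Cre knock-in at the Nfatc1 locus that switches the transgene on. The labels call the controls wild type, whereas the study's methods allow controls with either transgene alone or with neither. Nfatc1Cre recombines in the endocardium and its derivatives, in valve interstitial cells and at the leaflet–wall junction, but not in myocardium or smooth muscle. The sources used here do not give how many mice went into a library.

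In heart valves, periostin is made by interstitial cells and supports collagen fibre formation, and SPARC binds collagen during matrix assembly. Tenascin-C appears where tissue is remodeled or under mechanical load, and thrombospondin-1 can activate latent TGF-β. Ctgf and Cyr61 are targets of the YAP and TAZ coactivators, which act with TEAD factors and respond to cell tension.

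The libraries held from 46180666 to 55728854 fragments in the controls and from 32218343 to 53129459 in the mutants. Levels are given in CPM, a count scaled to one common library total after TMM scaling, which adjusts the totals for composition. Fold changes compare mutants with controls on the log2 scale and carry the standard error (SE) of the edgeR fit. Markers of valve interstitial cells were present in all libraries, at a summed 5691 to 6590 CPM in the controls and 5045 to 6897 CPM in the mutants, and 0 of the 10 were at 0 throughout. Muscle markers were also high. A list of 16 cardiac muscle genes summed to 46227, 15527 and 48924 CPM in control replicates 1, 2 and 3, and to 53596, 26712 and 37708 CPM in the corresponding mutant replicates. Smooth muscle markers, 10 genes, summed to 8212, 15077 and 7405 CPM in the controls and to 4061, 6914 and 7535 CPM in the mutants. Control replicate 2 therefore stood apart, with the least cardiac and the most smooth muscle RNA, and mutant replicate 1 had the least smooth muscle RNA. Values without control replicate 2 are given below for the members that rest on it. In bulk tissue, fewer cells of a type and less RNA per cell cannot be told apart.

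The stretches of 250 bases before the start sites of Tnc, Postn, Cyr61 and Thbs4 are shown because the results turn on these genes, namely the member with the largest difference between groups, periostin that is set against it, a CCN gene and the most variable member. The sequences are from RefSeq on GRCm38.p6 and run 5′ to 3′ on the strand of the gene. Capitals mark TATAAA, the TATA box core, and CATTCC, the core bound by TEAD factors.
Tnc (chr4:64047016-64047265, minus strand): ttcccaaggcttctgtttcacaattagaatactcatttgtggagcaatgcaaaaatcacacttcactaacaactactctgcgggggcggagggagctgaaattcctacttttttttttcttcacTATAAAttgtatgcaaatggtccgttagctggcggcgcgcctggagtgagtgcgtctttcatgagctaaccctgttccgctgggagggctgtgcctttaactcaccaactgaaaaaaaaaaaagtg
Postn (chr3:54360857-54361106, plus strand): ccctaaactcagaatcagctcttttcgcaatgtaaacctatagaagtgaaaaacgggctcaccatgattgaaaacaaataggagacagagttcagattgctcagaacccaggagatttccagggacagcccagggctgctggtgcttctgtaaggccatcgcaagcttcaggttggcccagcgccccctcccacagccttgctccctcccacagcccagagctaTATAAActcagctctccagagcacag
Cyr61 (chr3:145649986-145650235, minus strand): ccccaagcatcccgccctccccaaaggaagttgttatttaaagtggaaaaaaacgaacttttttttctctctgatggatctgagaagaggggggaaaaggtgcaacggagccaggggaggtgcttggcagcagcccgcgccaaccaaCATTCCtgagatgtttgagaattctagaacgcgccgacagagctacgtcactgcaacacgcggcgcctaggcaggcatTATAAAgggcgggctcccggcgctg
Thbs4 (chr13:92794819-92795068, minus strand): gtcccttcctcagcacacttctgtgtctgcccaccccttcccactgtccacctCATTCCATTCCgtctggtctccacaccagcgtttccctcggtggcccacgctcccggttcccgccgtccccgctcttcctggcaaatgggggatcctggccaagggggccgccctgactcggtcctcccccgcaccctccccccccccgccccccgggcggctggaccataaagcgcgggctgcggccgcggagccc
RefSeq windows matched 7 of the 10 members, Postn, Tnc, Thbs2, Thbs3, Thbs4, Sparc and Cyr61, and gave 9 windows, since Postn and Tnc each had a second start site. On either strand, CATTCC occurred in the windows of Cyr61 and Thbs4, and in 12.6% of all 32851 windows of this length. In Cyr61 the match began 103 bases before the start site. In Thbs4 2 matches began 197 and 192 bases before it and share 1 base. TATAAA, which 12.4% of all windows hold, began 25 bases before the start site in Cyr61 and 26 in Postn. In Tnc it began 126 bases before the start site shown and 205 before the other one, and Thbs2 held it on the opposite strand. The AP-1 motif TGANTCA and the CArG box of SRF occurred in 0 of the members' windows, and in 6.75% and 1.47% of all windows. CAGAC, the core bound by SMAD proteins, occurred in at least 1 window of Postn, Tnc, Thbs2, Thbs4 and Sparc and in 42.2% of all windows. These matches describe the letters and are not measured binding sites.

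In the control valves the members ranged widely in level. Scaled by exon length, as CPM per kilobase of exon, Sparc was the highest at 565 ± 135 (SD, n = 3). Ctgf followed at 346 ± 91.1 and Cyr61 at 161 ± 30.003 CPM per kilobase (SD, n = 3). Postn was read at 131 ± 12.7 and Sparcl1 at 108 ± 23.5 CPM per kilobase (SD, n = 3). With the length of the longest transcript in place of all exon bases, Sparc was at 931 and Postn at 219 CPM per kilobase, which places Postn above Cyr61. By CPM, not scaled by length, Sparc stood at the 99.8th percentile of the 15354 genes tested, Postn at the 99.6th, Ctgf at the 99.3rd, Thbs1 at the 97.6th, Cyr61 at the 97.2nd and Sparcl1 at the 96.6th.

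Per kilobase the thrombospondins lay below them in the order of their numbers. Thbs1 was read at 60.0 ± 31.5 CPM per kilobase (SD, n = 3), Thbs2 at 26.1 ± 4.81, Thbs3 at 10.6 ± 1.33 and Thbs4 at 5.30 ± 3.70. Thbs1 and Thbs2 encode the trimeric thrombospondins that inhibit angiogenesis, and Thbs3 and Thbs4 belong to the pentameric group. Tnc was the lowest member, at 2.14 ± 0.312 CPM per kilobase (SD, n = 3). Between neighbours in this order, the control ranges were apart for Ctgf and Cyr61, for Thbs2 and Thbs3, and for Thbs3 and Thbs4, and overlapped for the other 6 pairs. Within libraries the order was firmer. In 7 of the 9 neighbouring pairs the higher gene exceeded the lower in all 6 libraries, and the exceptions were Cyr61 against Postn, in 4 of 6, and Thbs4 against Tnc, in 5 of 6. Together the 10 genes took from 0.474% to 0.629% of all fragments in the controls and from 0.410% to 0.558% in the mutants.

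**Figure D1:**
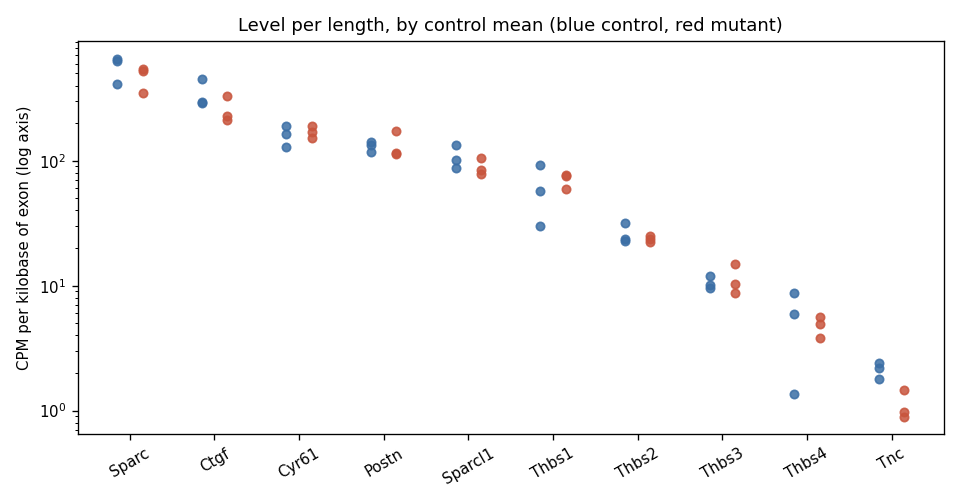
Level of each member per library in CPM per kilobase of exon on a log axis, ordered by the control mean, with controls in blue and mutants in red. Sparc lies at the top and Tnc at the bottom, and among the controls Thbs4 and Thbs1 are the most widely spread.

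The question of the comparison was whether activation of AcvRI altered these genes in the adult valve. In edgeR's quasi-likelihood test 0 of 15354 genes (0.0%) passed an adjusted p of 0.05, no adjusted p being below 0.999. Before adjustment 529 genes (3.45%) lay under 0.05, and DESeq2 called 26 genes (0.169%) after adjustment. Of the 10 members, 0 passed the adjusted threshold in edgeR or in DESeq2. At an unadjusted p under 0.05, 1 member, Tnc, was lower in the mutants, where 1.86% of all genes tested were lower at this threshold, and 0 members were higher. Tnc was also the only member of the 10 whose groups did not overlap, where 8.87% of all genes tested had groups that did not overlap, 4.83% with every mutant below every control and 4.04% with every mutant above. Fold changes lay below 0 on the log2 scale for 6 members and above 0 for 4, where 47.8% of all genes tested lay below 0. Their median was -0.14, against 0.01 over all genes tested.

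**Figure D2:**
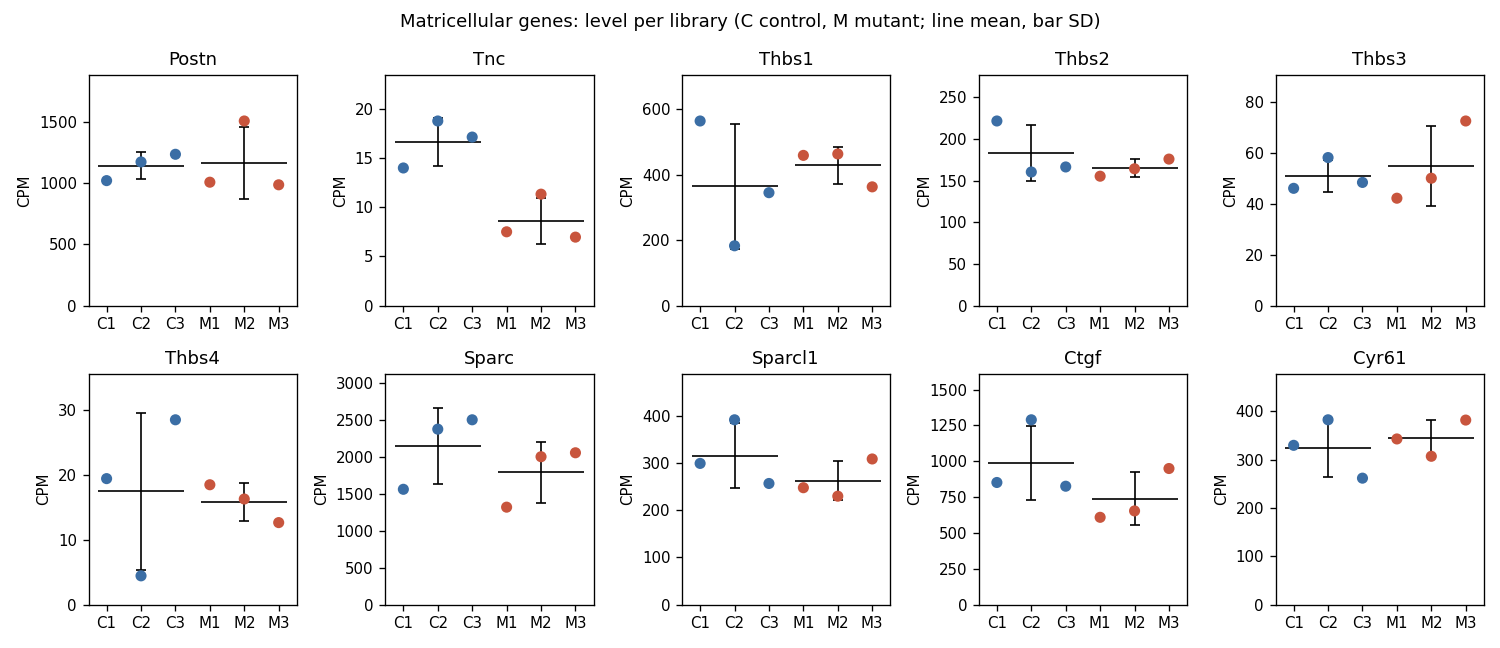
CPM of each member in control replicates (C1 to C3, blue) and mutant replicates (M1 to M3, red), with the group mean as a line and the SD as a bar, each axis starting at 0. In Tnc every mutant, from 6.96 to 11.3 CPM, lies below every control, from 14.0 to 18.7 CPM, and in the other 9 genes the groups overlap.

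Tnc encodes tenascin-C, a large glycoprotein that loosens the attachment of cells to fibronectin. The gene lies on chromosome 4 from 63959785 to 64047015, on GRCm38 as are all gene positions here. It was read at 14.0, 18.7 and 17.1 CPM in control replicates 1, 2 and 3, from 750, 949 and 788 counts. The mutants gave 7.501, 11.3 and 6.96 CPM in replicates 1, 2 and 3, from 389, 448 and 222 counts. The groups did not overlap, and mutant replicate 2 lay closest to the controls (p = 0.1, two-sided, by exact permutation, which cannot go lower with 3 libraries a group). Control libraries averaged 16.6 ± 2.42 CPM and mutant libraries 8.59 ± 2.38 CPM (SD, n = 3 each), so that the difference exceeded the spread between replicates. On the log2 scale the fold change was -0.95 (SE 0.23, 95% interval -1.49 to -0.41), a level 0.518 times that of the controls. Its unadjusted p in edgeR was 0.00422, the 45th smallest of all genes tested, and its adjusted p was 0.999. In DESeq2 the unadjusted p of Tnc was 0.000252 and its adjusted p 0.0910. Leaving out each library in turn gave log2 fold changes from -1.20 to -0.82, and without control replicate 2 it was -0.85. With the smooth muscle score as a covariate it was -0.76. The difference of Tnc thus kept its direction in every alternative fitted, but it did not pass the adjustment over all genes in any of them.

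Postn encodes periostin, a partner of tenascin-C and fibronectin in the matrix, and is located on chromosome 3 from 54361109 to 54391037. It was read at 1019.5, 1172 and 1234 CPM in the controls and at 1007, 1505 and 985 CPM in the mutants. Mutant replicate 2 was the highest library and mutant replicate 3 the lowest, so that the mutants enclosed all 3 controls. Its log2 fold change was 0.03 (SE 0.23, 95% interval -0.50 to 0.56). Leaving out mutant replicate 2 made this -0.20, and leaving out mutant replicate 3 made it 0.14. Without control replicate 2 it was 0.05, and with the smooth muscle score as a covariate 0.14.

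The ratio of Postn to Tnc within each library was steadier within each group than either gene alone. In CPM, not scaled by length, it was 72.9, 62.5 and 72.1 in the controls and 134, 133 and 142 in the mutants. The ratio averaged 69.2 ± 5.80 (SD, n = 3) in the controls and 136 ± 4.65 (SD, n = 3) in the mutants. The ratio was picked after its values were seen and is a description with no test. Of the 45 ratios between 2 members, 8 (17.8%) did not overlap between the groups, 5 of them with Tnc. Over all pairs of the 15166 genes tested that had counts in every library, 8.7% of the ratios did not overlap, and ratios that share a gene are not independent.

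The CCN genes encode cysteine-rich proteins that bind integrins, and both respond quickly to stretch. Ctgf (chromosome 10, 24595442 to 24598683) was read at 852, 1289.5 and 826 CPM in the controls. The mutants were at 609, 653 and 949 CPM. Mutant replicates 1 and 2 lay below all controls, and mutant replicate 3 lay between them. The means were 989 ± 261 and 737 ± 185 CPM (SD, n = 3), and the log2 fold change was -0.42 (SE 0.26, 95% interval -1.05 to 0.20). It was -0.18 without control replicate 2, the highest library, and -0.01 with the smooth muscle score as a covariate. Cyr61 (chromosome 3, 145646976 to 145649981) was read at 329.6, 382 and 262 CPM in the controls and 343, 307 and 382 CPM in the mutants. The lowest library of Cyr61 was a control, control replicate 2 and mutant replicate 3 were nearly level at the top, and the groups differed by 0.08 on the log2 scale (SE 0.17, 95% interval -0.33 to 0.49). Cyr61 differed by 0.22 without control replicate 2, by 0.24 with the smooth muscle score as a covariate and by -0.05 without control replicate 3.

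Per kilobase, Ctgf was above Cyr61 in every library. Not scaled by length, Ctgf had 2.58, 3.37 and 3.16 times the CPM of Cyr61 in the controls and 1.78, 2.13 and 2.49 times in the mutants. Every mutant ratio was below every control ratio, with means of 3.04 ± 0.407 and 2.13 ± 0.355 (SD, n = 3). The gap between the nearest libraries, control replicate 1 and mutant replicate 3, was small. Of the 8 ratios without overlap, 3 did not include Tnc, namely Ctgf to Cyr61, Sparcl1 to Cyr61 and Thbs3 to Ctgf, and these were likewise seen before they were picked.

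**Figure D3:**
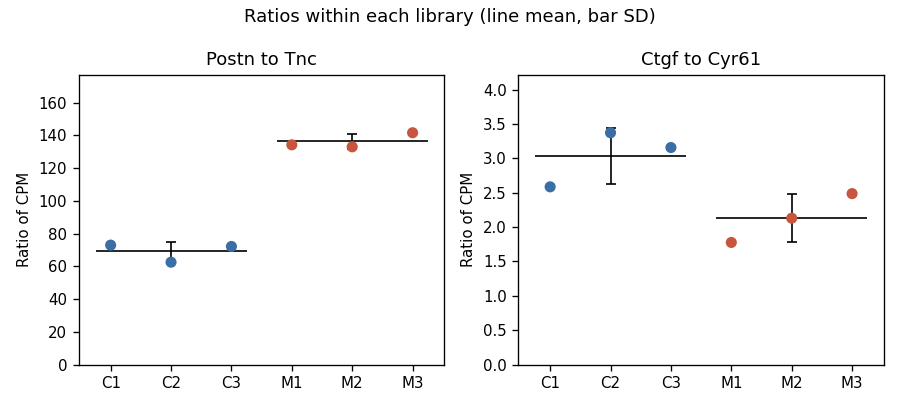
Ratio of CPM within each library, Postn to Tnc on the left and Ctgf to Cyr61 on the right, for control (C, blue) and mutant (M, red) replicates, with the mean as a line and the SD as a bar. Postn to Tnc lies from 62.5 to 72.9 in the controls and from 133 to 142 in the mutants, and Ctgf to Cyr61 from 2.58 to 3.37 and from 1.78 to 2.49.

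Sparc (chromosome 11, 55394500 to 55423183) encodes osteonectin, a collagen-binding protein of remodeling matrix and bone. It was read at 1558, 2371 and 2497 CPM in the controls. The mutants gave 1316, 1998 and 2051 CPM. In both groups replicate 1 was the lowest library. Sparc gave a log2 fold change of -0.26 (SE 0.29, 95% interval -0.94 to 0.42), and with the smooth muscle score as a covariate it was 0.04. Leaving out mutant replicate 1 gave -0.08 and leaving out control replicate 1 gave -0.44. Its relative Sparcl1 (chromosome 5, 104079111 to 104113733), which encodes hevin, was read at 299.6, 392 and 257 CPM in the controls. In the mutants Sparcl1 was read at 248, 230.0 and 309 CPM. Mutant replicates 1 and 2 lay below all controls, as for Ctgf. The groups differed in Sparcl1 by -0.27 on the log2 scale (SE 0.20, 95% interval -0.73 to 0.19) and by -0.08 without control replicate 2. With the smooth muscle score as a covariate the value for Sparcl1 was -0.0095.

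Among the thrombospondins, Thbs1 (chromosome 2, 118111876 to 118127133) differed more among the controls than between the groups. It was read at 564, 183 and 345 CPM in the controls, a 3.08-fold range, and at 459, 463 and 363 CPM in the mutants, a 1.28-fold range. The mutants lay within the control range. The log2 fold change of Thbs1 was 0.23 (SE 0.37, 95% interval -0.65 to 1.12), which became -0.08 without control replicate 2 and 0.70 without control replicate 1. Thbs4 (chromosome 13, 92751590 to 92794818), a thrombospondin of tendon and heart muscle, was read at 19.4, 4.42 and 28.5 CPM in the controls. The mutants were at 18.5, 16.3 and 12.6 CPM. The controls spanned a 6.44-fold range and the mutants a 1.46-fold one. The log2 fold change of Thbs4 was -0.14 (SE 0.58, 95% interval -1.50 to 1.22). Without control replicate 2, which had 224 counts, it was -0.60 (unadjusted p = 0.0400 and adjusted p above 0.999 in edgeR), and without control replicate 3 it was 0.41. With the smooth muscle score as a covariate it was -0.86 (unadjusted p = 0.137 in edgeR).

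Thbs2 and Thbs3 varied less over the 6 libraries, although within the mutants Thbs3 spanned a 1.72-fold range. Thbs2 (chromosome 17, 14665500 to 14694235) was read at 222, 160.4 and 166 CPM in the controls and at 155, 164 and 176 CPM in the mutants, with control replicate 1 above the other 5 libraries. Thbs2 gave a log2 fold change of -0.15 (SE 0.15, 95% interval -0.50 to 0.20). This became 0.02 without control replicate 1 and -0.23 without control replicate 2. Thbs3 (chromosome 3, 89215180 to 89226837) was read at 46.1, 58.2 and 48.4 CPM in the controls and 42.2, 50.1 and 72.5 CPM in the mutants, with mutant replicate 3 the highest. Thbs3 gave a log2 fold change of 0.11 (SE 0.21, 95% interval -0.39 to 0.60). It was -0.14 without mutant replicate 3, 0.22 without control replicate 2 and 0.44 (unadjusted p = 0.0451 in edgeR) with the smooth muscle score as a covariate. The exons of Thbs3 share 318 bases with Mtx1 on the opposite strand. Exon bases were also shared with opposite-strand transcripts by Tnc (176), Thbs1 (208) and Ctgf (665). Where counting used no strand, fragments from such stretches cannot be told apart, and the sources used here do not give whether it did. Thbs1 made up from 45.4% to 66.3% of the CPM per kilobase summed over the 4 thrombospondin members in the controls and from 57.6% to 67.4% in the mutants. Comp, a thrombospondin that is not among them, was read at 78.9 ± 37.3 CPM per kilobase (SD, n = 3) in the controls, above the mean of Thbs1.

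**Figure D4:**
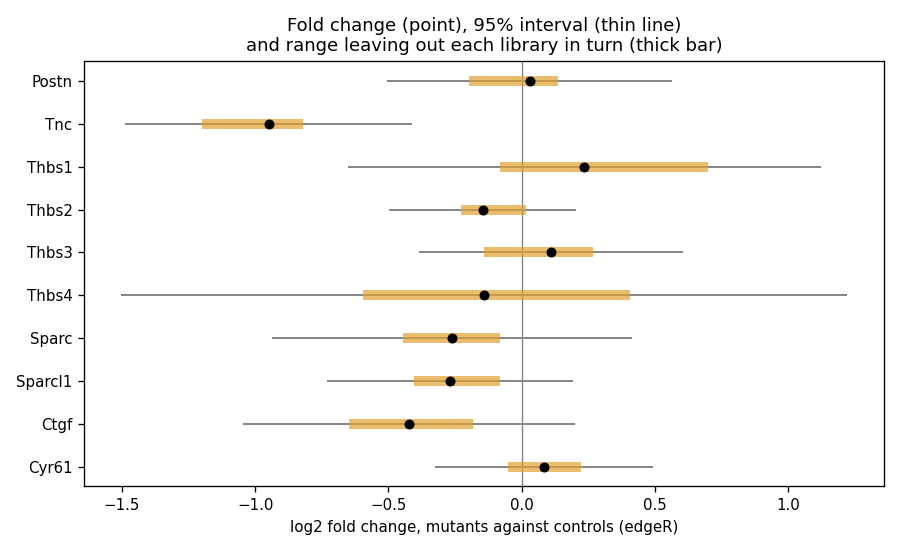
Log2 fold change of each member, mutants against controls, from edgeR (point), with its 95% interval (thin line) and the range of the 6 fits in which single libraries were left out (thick bar). The interval of Tnc, -1.49 to -0.41, is the only one that excludes 0, before any adjustment for the number of genes.

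Among the libraries, Thbs4, Tnc and Thbs1 varied most, with an SD of log2 CPM of 0.92, 0.60 and 0.57, the 93.2nd, 83.5th and 82.0th percentile of the genes tested. Thbs2 and Cyr61 varied least, with an SD of 0.19 and 0.21. Thbs1 and Thbs4 were lowest in control replicate 2, in which cardiac muscle markers were lowest too. In that library Thbs1 was at 46.2% of its mean over the 6 libraries, Thbs4 at 26.6% and the summed cardiac muscle markers at 40.7%. Comp, the fifth thrombospondin, was at 58.1%. In mutant replicate 2, however, the cardiac muscle markers were at 70.1% of their mean and Thbs1 at 117%. Ctgf and Sparcl1 were highest in control replicate 2, at 149% and 136% of their means, where smooth muscle markers were at 184%. With the cardiac muscle score as a covariate the log2 fold changes were -0.88 for Tnc, -0.30 for Ctgf, -0.18 for Sparcl1, 0.19 for Thbs1 and -0.12 for Thbs4, and with the smooth muscle score -0.20 for Thbs1. Of the 10 smooth muscle markers, 9 had a log2 fold change below 0, and in 4 every mutant lay below every control. The fit with this score therefore cannot separate muscle content from the group. The part of muscle tissue in the levels of Thbs1, Thbs4, Ctgf and Sparcl1 was not tested beyond these covariates.

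**Figure D5:**
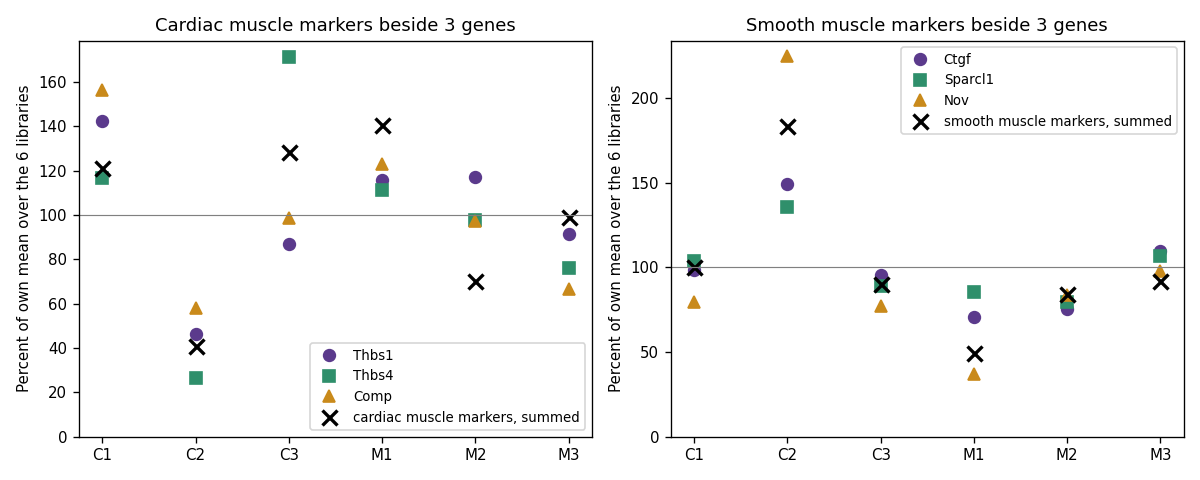
Level per library as a percent of its own mean over the 6 libraries, for Thbs1, Thbs4, Comp and the summed cardiac muscle markers (left) and for Ctgf, Sparcl1, Nov and the summed smooth muscle markers (right), with C for control and M for mutant replicates. In control replicate 2 the left-hand values lie between 26.6% and 58.1% and the right-hand ones between 136% and 225%.

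For the 3 most variable members, the genes with the most similar profile over the 6 libraries were taken from 13683 genes of at least 1 CPM on average, by Pearson's r of log2 CPM. For Thbs4 these were Srek1ip1 (r = 0.995), Itpa (0.994) and Lyrm7 (0.991). Tnc was closest to Cep120 (r = 0.995), Gab2 (0.994) and Gspt2 (0.983). Gab2, which encodes a docking adaptor of receptor tyrosine kinases, was read at 119, 138 and 126 CPM in the controls and 88.8, 104 and 86.2 CPM in the mutants. For Thbs1 the closest were Myl2 (r = 0.998), the ventricular myosin light chain, Cpxm2 (0.997) and Isca1 (0.994). Over these 6 libraries r exceeded 0.95 with 50, 43 and 100 genes for Thbs4, Tnc and Thbs1.

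The relatives of the members, 16 genes, were compared on the same scale. Of these, Tnr and Wisp3 did not reach 10 counts in at least 3 libraries, with at most 25 and 7 counts in a library. Of the 14 tested, 1 was higher and 0 were lower in the mutants at an unadjusted p under 0.05, where 1.59% of all genes tested were higher, and their median log2 fold change was -0.07. The gene under this threshold was Spock1, a testican of the SPARC family, at 4, 2 and 4 counts in the controls and 24, 43 and 17 counts in the mutants. Spock1 met the filter of 10 counts in 3 libraries only through the mutants, the group in which it was high. It therefore had to differ, and its test supports nothing. DESeq2 called 1 relative after adjustment, Spock1 (adjusted p = 0.0309 in DESeq2), with the same limit. Spock2 and Spock3 had log2 fold changes of 0.23 and -0.11. Without control replicate 2, in which Spock2 was at 26.1 CPM and Spock3 at 2.59 CPM, Spock2 differed by 1.05 (unadjusted p = 0.00775 in edgeR). Spock3 then had 4 and 0 counts in the controls and 30, 39 and 29 counts in the mutants, so that only the mutants still met the filter and no fold is given. The relatives under the threshold were then 4, Spock1 and Spock3 included with this limit, beside Spock2 and Spp1. Among all genes, 435 were under it in that fit. The relatives were 3 without mutant replicate 2 and 2 without control replicate 3, where 557 and 478 of all genes were under it.

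In the tenascin family, Tnxb (tenascin-X), which binds collagen fibrils, was at 38.7, 45.1 and 34.3 CPM in the controls. In the mutants Tnxb was at 51.2, 35.5 and 105.6 CPM. Mutant replicate 3 stood above the rest. Tnxb gave a log2 fold change of 0.70 (SE 0.38, unadjusted p = 0.104 in edgeR), and the fits that left out one library gave 0.14 to 0.99. Tnn (tenascin-W) was read at under 1 CPM in all 6 libraries, with a log2 fold change of 0.04. Of the other CCN genes, Nov (Ccn3) was read at 679, 1921 and 658 CPM in the controls and 315, 718 and 837.5 CPM in the mutants. Nov was highest in control replicate 2. For Nov the log2 fold change was -0.80 (SE 0.53), and -0.10 without control replicate 2. Wisp1 differed by 0.20 (SE 0.30) and Wisp2 by -0.08 (SE 0.21) on the log2 scale. Both changed sign among the fits that left out one library, from -0.02 to 0.49 for Wisp1 and from -0.28 to 0.12 for Wisp2.

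Comp was read at 351, 131 and 221 CPM in the controls and 277, 219 and 150 CPM in the mutants, which differed by -0.12 on the log2 scale (SE 0.37). For Comp the fits that left out one library gave -0.41, without control replicate 2, to 0.29. Tgfbi, a relative of periostin, was read at 123 ± 6.10 and 119 ± 21.7 CPM (SD, n = 3), with a log2 fold change of -0.04. Of the SPARC relatives, Smoc1 had a log2 fold change of -0.54 (-0.07 without control replicate 2), Smoc2 one of -0.11 and Fstl1 one of -0.06. Spp1 (osteopontin), a matricellular protein of bone and macrophages, was at 32.5, 8.87 and 114 CPM in the controls and 10.1, 30.3 and 4.17 CPM in the mutants. Controls differed among themselves more than the group means did, and the log2 fold change of Spp1 was -1.80 (SE 1.00, unadjusted p = 0.116 in edgeR). Leaving out single libraries gave -2.85 to -0.47, with -2.29 (unadjusted p = 0.0321 in edgeR) without control replicate 2.

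Of 27 genes for receptors of these proteins, all tested, 0 were higher and 2 were lower in the mutants at an unadjusted p under 0.05, where all genes tested gave 1.59% and 1.86%, and the receptors' median log2 fold change was -0.09. Itgb5, the β5 integrin subunit that binds periostin with αv, was read at 416, 583 and 402 CPM in the controls. Mutants gave 291, 342 and 350 CPM for Itgb5, with no overlap and a log2 fold change of -0.51 (SE 0.18). Itga9, the α9 subunit of a tenascin-C receptor, was read at 264, 328 and 248 CPM in the controls and 212, 246 and 177 CPM in the mutants. Its groups did not overlap, and Itga9 differed by -0.40 on the log2 scale (SE 0.17, unadjusted p = 0.0491 in edgeR). The thrombospondin receptors Cd36 and Cd47 had log2 fold changes of 0.17 and 0.07, and Stab1, a scavenger receptor for SPARC, one of -0.06. Each receptor had an adjusted p of at least 0.999 in edgeR, and 0 receptors had an adjusted p under 0.05 in DESeq2.

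Among 19 matrix partners, such as collagens, fibronectin and TGF-β, 0 were higher and 2 were lower at an unadjusted p under 0.05, against 1.59% and 1.86% of all genes tested, with a median log2 fold change of -0.11. Ltbp1, which tethers latent TGF-β to the matrix, differed by -0.46 (SE 0.16) on the log2 scale and Tgfb3 by -0.47 (SE 0.19). In both, every mutant lay below every control. The receptors under this threshold fell to 0 without control replicate 2, mutant replicate 1 or mutant replicate 3, and the partners to 0 without control replicate 2, control replicate 3 or mutant replicate 3 and to 1 without mutant replicate 2. Fn1, Col1a1 and Lox had log2 fold changes of -0.30, -0.16 and -0.84, with overlapping groups.

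Of the 30 YAP and TEAD pathway genes tested, 0 were higher and 1 was lower at an unadjusted p under 0.05, beside 1.59% and 1.86% of all genes tested, with a median log2 fold change of -0.16. The count was 2 without control replicate 1, control replicate 3 or mutant replicate 2. Ptpn14, a phosphatase that restrains YAP, was read at 64.5, 90.6 and 65.1 CPM in the controls. Mutants gave 45.3, 55.7 and 49.2 CPM for Ptpn14, a log2 fold change of -0.55 (SE 0.16). The kinase gene Lats1 likewise had all mutants under all controls, with -0.29 (SE 0.14). Yap1, Wwtr1 (TAZ) and Ankrd1 had log2 fold changes of 0.21, -0.09 and -0.17. The SRF and MRTF list, 17 genes, had 0 genes under this threshold in either direction in edgeR, 1 in DESeq2 and 1 without mutant replicate 2. Its median log2 fold change was -0.25. Only 1 of the 17, the coactivator gene Mkl1, had groups that did not overlap, where 8.87% of all genes tested did not. In the immediate early list 1 of 22 genes tested was higher and 1 was lower, beside the same 1.59% and 1.86%. Of these 2 in all, the count became 4 without control replicate 1, and 1 without control replicate 3 or mutant replicate 3. Nr4a1 was above every control in every mutant, with a log2 fold change of 0.36 (SE 0.12), and Maff was below, with -0.56 (SE 0.18). Ier5, with 0.22 (SE 0.10), also had no overlap. The median of this list was 0.15.

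The 11 lists of cell type markers gave the following counts at an unadjusted p under 0.05, where 1.59% of all genes tested were higher and 1.86% lower. In cardiac muscle, tendon and cartilage, endothelium, adipocyte, Schwann cell and red blood cell markers 0 genes were under it. Smooth muscle markers had 2 of 10 lower, Synpo2 and Smtn, with a median log2 fold change of -0.84 over the list. Macrophage markers had 4 of 11 higher (C1qa, C1qb, C1qc and Cd68), and B and plasma cell markers 1 of 8 higher (Igj). Valve interstitial cell markers had 1 higher (Dpt) and 1 lower (Pdgfrb), and melanocyte markers 1 higher (Mitf). After adjustment edgeR called 0 of these, and DESeq2 called Igj, the antibody joining chain, at 0.424 ± 0.186 and 4.37 ± 1.40 CPM (SD, n = 3).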

How the data were processed

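RNA-Seq of aortic valves was analysed in 3 control and 3 mutant libraries, grouped by their titles. The authors aligned reads to mm10 and deposited estimated counts per gene, the fragments assigned by Cuffdiff 2.1.1, not scaled for library size. Per the labels, TopHat2 2.0.13 and Bowtie2 2.2.1 were used. Between 1.66% and 1.87% of values per library were not whole and were rounded. Library totals of 32218343 to 55728854 fragments set the counting precision.

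A gene entered the fit if 3 or more libraries held at least 10 counts (15354 genes). Groups were compared in edgeR 4.0.16 (R 4.3.3) with TMM and the quasi-likelihood F test, without covariates, with Benjamini-Hochberg adjustment over all genes tested. Intervals of log2 fold changes came from this fit. P-values measure only the spread between these libraries, which the labels do not tie to separate animals. Lengths and positions were taken from GENCODE M21 on GRCm38, which matched 22609 of 23107 symbols. The alternatives were DESeq2 1.42.0, limma 3.58.1 (voom, with and without sample weights), other normalizations and filters, a replicate block, marker scores as covariates, and leaving out each library. The pipeline was tested on simulated data.

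The members, lists and tests were chosen with earlier results of these data known. The text names the members, their measured relatives, up to 3 genes without overlap per other list by smallest p, receptors and partners as background, and the 3 genes closest in profile to each of the 3 most variable members. C1qc and Dpt were named after their values were seen. Symbols of the lists that are not in the counts were left out.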

Additional observations from a re-analysis of the deposited data

How the results depend on the processing

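The 3 libraries a group limit what could be seen. The number of genes with an adjusted p under 0.05 was 0 in all edgeR and limma fits and 26 in DESeq2. At an unadjusted p under 0.05, 529 genes became 814 with a replicate block and 865 with the smooth muscle score as a covariate, and 1 member became 2 in that covariate fit, with Thbs3 added (log2 fold change 0.44). Leaving out one library gave 1 to 2 members, where 435 to 633 of all genes were under this threshold. The deviations of same-numbered libraries had r = 0.29, 0.08 and 0.03 across genes, and those of unlike numbers had r from -0.27 to 0.20. Not every library correlated best with its own number. With 3 libraries a group and no test, these values do not decide whether same-numbered libraries were paired. No member passed the adjusted threshold in any alternative. Tnc stayed lower in all 17 alternatives, from -1.20 to -0.76. Sparcl1 and Ctgf kept their sign, but with the smooth muscle score they were near 0 (-0.0095 and -0.0059), and Thbs4 moved to -0.86. Smooth muscle markers were themselves lower in the mutants, so this covariate overlaps with the group and can also take out a group difference. The direction of Thbs4 reversed in limma-voom (0.26), with the replicate block (0.17) and with the tendon and cartilage score as a covariate (0.25), the last chosen after seeing the data. Postn reversed with sample weights in limma-voom (-0.0146), Thbs1 (-0.20) and Sparc (0.0421) with the smooth muscle score. The fits without one library gave log2 fold changes of -0.20 to 0.14 for Postn, -0.0820 to 0.70 for Thbs1, -0.23 to 0.0152 for Thbs2, -0.14 to 0.27 for Thbs3, -0.60 to 0.41 for Thbs4 -0.0525 to 0.22 for Cyr61 and -0.44 to -0.08 for Sparc, which kept its sign there. The cause of these reversals was not tested. With the longest transcript in place of all exons, levels per kilobase rose to 931 for Sparc and 219 for Postn, which places Postn above Cyr61.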
